A study of Mus musculus with 9 samples.

Results

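Alpha defensins are the small antimicrobial peptides of intestinal Paneth cells, and 8 of their genes were read out in mouse duodenum: Defa3, Defa5, Defa17, Defa21, Defa22, Defa24, Defa26 and Defa30. They were taken by gene symbol from the 54532 rows of the gene count table, which holds 45 alpha defensin rows in all. RNA sequencing was done on 5 Pla2g12b mutant mice and on 4 wild-type (WT) mice. All mice were male, of the C57BL/6 strain and age-matched, and all were fed regular chow for 3 months. Which Pla2g12b change the mutants carry is not in their labels, although the series concerns a dominant negative C129Y change. Pla2g12b encodes a secreted phospholipase-like protein without catalytic activity that takes part in lipoprotein assembly. Its own reads do not test the labels, since a changed amino acid need not change a transcript's level. Pla2g12b averaged 121 ± 15.1 CPM in mutants (SD, n = 5) and 90.1 ± 15.7 CPM in WT mice (SD, n = 4). It was called higher in mutants (log2 fold change 0.42, adjusted p = 0.023 by edgeR), as were 15.4% of all genes tested. The call was lost in 6 of 24 alternative fits, among them that without WT 3 and 4 (adjusted p = 0.24).

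Paneth cells sit at the base of small-intestinal crypts, next to the stem cells, and release granules into the crypt lumen. The granules hold alpha defensins, called cryptdins in mice, beside lysozyme and other antimicrobial proteins. Cryptdins are made as precursors, and in mice the metalloproteinase Mmp7 cuts off the pro-segment to free the active peptide. The mouse genes lie in 1 tandem cluster, and some of them differ from each other by few bases, so that a short sequencing read can match several of them.

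The 3′ ends of the coding sequences are shown because they encode the part of the precursor that becomes the active peptide. Their likeness also limits how well reads can be assigned. Each is the last 108 bases of the coding sequence, 35 codons and the stop codon, 5′ to 3′ on the plus strand of chromosome 8 in GRCm38, from GENCODE M21. Capitals mark bases unlike those of Defa24, the gene with the most reads.
Defa24: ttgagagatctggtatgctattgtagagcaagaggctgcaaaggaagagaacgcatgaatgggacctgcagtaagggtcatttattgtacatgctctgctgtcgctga
Defa30: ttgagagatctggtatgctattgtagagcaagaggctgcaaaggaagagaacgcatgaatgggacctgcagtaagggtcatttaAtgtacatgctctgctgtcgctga
Defa17: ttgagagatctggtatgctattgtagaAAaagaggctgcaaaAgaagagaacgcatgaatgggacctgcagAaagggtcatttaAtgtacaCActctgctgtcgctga
Defa3: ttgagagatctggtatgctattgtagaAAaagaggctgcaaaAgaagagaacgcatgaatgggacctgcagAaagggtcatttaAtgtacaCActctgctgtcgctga
Defa26: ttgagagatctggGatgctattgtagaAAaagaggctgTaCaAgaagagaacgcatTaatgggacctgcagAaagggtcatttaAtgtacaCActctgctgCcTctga
Defa22: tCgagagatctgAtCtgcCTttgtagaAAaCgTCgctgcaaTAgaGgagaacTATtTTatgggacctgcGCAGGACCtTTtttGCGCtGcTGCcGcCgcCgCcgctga
Defa21: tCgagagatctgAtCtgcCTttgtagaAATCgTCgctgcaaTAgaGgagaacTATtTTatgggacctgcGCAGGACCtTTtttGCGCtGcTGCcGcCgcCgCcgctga
Defa5: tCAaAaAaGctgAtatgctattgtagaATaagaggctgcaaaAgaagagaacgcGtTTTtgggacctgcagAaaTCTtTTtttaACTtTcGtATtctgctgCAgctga
These stretches lie at chr8:21735270-21735377 (Defa24), chr8:21135396-21135503 (Defa30), chr8:21656534-21656641 (Defa17), chr8:21288176-21288283 (Defa3), chr8:21618775-21618882 (Defa26), chr8:21163048-21163155 (Defa22), chr8:21026316-21026423 (Defa21) and chr8:21298174-21298281 (Defa5). Defa30 differed from Defa24 at 1 of the 108 bases, Defa17 and Defa3 at 7, Defa26 at 13, Defa5 at 28, Defa22 at 40 and Defa21 at 41. Over the whole coding sequence of 282 bases, Defa3 and Defa17 were identical, Defa21 and Defa22 differed at 2 bases, and Defa24 and Defa30 differed at 4.

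The transcripts were also compared in stretches of 100 bases, as a guide to what a read could tell apart, since the read length is not given in the sources used here. Of the stretches of Defa24, 100% occurred in no other alpha defensin transcript. The unique share was 99.7% in Defa30 and 98.9% in Defa26. It was 59.7% in Defa22 and 59.6% in Defa21, which share the rest with each other. Defa3 had 13.2%, and 86.8% of its stretches also occur in Defa17. Defa17 had 9.4%, and 90.6% of its stretches also occur in Defa3. Defa5 had 11.9%, and 74.7% of its stretches also occur in Defa34. These shares turn on the length. With stretches of 50 bases the unique share was 71.9% in Defa24, 59.8% in Defa26, 47.6% in Defa30, 27.1% in Defa21 and 25.1% in Defa22. With stretches of 150 bases it was 100% in Defa24, Defa26 and Defa30, 89.2% in Defa21 and 89.3% in Defa22. It stayed low in Defa3 (7.76% at 50 bases and 15.7% at 150), Defa17 (8.05% and 11.3%) and Defa5 (0.306% and 30.8%). How far counts rest on a gene's own reads thus turns on the read length, and reads from shared stretches could have been assigned to any of the genes that hold them.

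All 8 genes are on the plus strand, have 2 exons each and lie between bases 21025545 and 21735471 of chromosome 8. RefSeq promoters (GRCm38.p6) were at hand for only 3 of the 8, Defa21, Defa22 and Defa30, and these 3 are shown for that reason. Each run goes from 250 to 11 bases before the RefSeq start, on the plus strand. Capitals mark TATAAA, the TATA box sequence, and ATCAAAG, the reverse complement of CTTTGAT, a sequence bound by TCF transcription factors of the Wnt pathway, on which Paneth cells depend.
Defa21: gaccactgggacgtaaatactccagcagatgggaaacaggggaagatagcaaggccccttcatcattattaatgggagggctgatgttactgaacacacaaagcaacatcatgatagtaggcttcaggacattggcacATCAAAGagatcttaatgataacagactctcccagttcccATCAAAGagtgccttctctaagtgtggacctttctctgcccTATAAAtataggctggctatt
Defa22: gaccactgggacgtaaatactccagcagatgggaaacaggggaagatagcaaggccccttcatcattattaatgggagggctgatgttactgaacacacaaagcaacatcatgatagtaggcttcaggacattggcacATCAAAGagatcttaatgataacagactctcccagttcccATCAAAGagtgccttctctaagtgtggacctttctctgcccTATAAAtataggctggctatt
Defa30: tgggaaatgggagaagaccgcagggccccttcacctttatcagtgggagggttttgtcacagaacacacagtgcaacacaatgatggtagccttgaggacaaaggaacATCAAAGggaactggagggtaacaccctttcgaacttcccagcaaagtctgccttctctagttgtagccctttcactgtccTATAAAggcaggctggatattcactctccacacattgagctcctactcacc
They lie at chr8:21025295-21025534 (Defa21), chr8:21162027-21162266 (Defa22) and chr8:21134400-21134639 (Defa30). The Defa21 and Defa22 runs were identical at all 240 bases. Each motif was searched on both strands of the first 240 bases of each promoter, the stretch shown here. CTTTGAT was present in 13 of 16 alpha defensin promoters and in 3.1% of all 32851 promoters. TATAAA, on both strands, was present in 15 of 16 alpha defensin promoters and in 12.1% of all. The related sequence CTTTGAA was present in 0 of the 16 and in 4.35% of all. No match overlaps another in these runs, and the alpha defensin promoters share ancestry. A match is a description of the letters and does not show that a factor binds.

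Total counts were 16245982 to 17959658 reads in mutant libraries and 16119639 to 24009157 reads in WT libraries. Levels are CPM, a gene's share of its library's reads on a common scale, with totals adjusted by the TMM method of edgeR. The libraries fell into close pairs: WT 1 and 2, WT 3 and 4, mutants 2 and 3, and mutants 4 and 5 differed within pairs by a chi-square per degree of freedom of 2.43 to 3.66, and the 12 other pairings within a genotype by 33.6 to 77.2. The labels number every library as a separate mouse, and the cause of the pairs was not tested. Counts of calls are given over all 9 libraries and again with each close pair added up as 1 sample, which leaves 3 mutant and 2 WT samples. The p-values measure the spread between these libraries.

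Alpha defensin transcripts were lower in the mutant duodenum. The 8 genes together had 40.3, 93.6, 113, 120 and 130 CPM in mutants 1 to 5, against 1943, 1785, 633 and 627 CPM in WT 1 to 4. The lowest WT library was above every mutant library, and the WT libraries split by close pair. The mean of the sums was 99.5 ± 35.7 CPM in mutants (SD, n = 5) and 1247 ± 715 CPM in WT mice (SD, n = 4), a log2 ratio of the means of -3.65. Without the pair WT 1 and 2 the log2 ratio was -2.66, and without the pair WT 3 and 4 it was -4.23. No test was made of the sum. In a bulk library, fewer Paneth cells and less defensin RNA per cell cannot be told apart.

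Of the 8 genes, 7 passed the expression filter. The quasi-likelihood test of edgeR called 6 of these 7 lower and 0 higher (adjusted p under 0.05, Benjamini-Hochberg, over all tested genes). Of all 15416 genes tested, 17.1% were called lower and 15.4% higher. Defa21, Defa22 and Defa3 had 2 to 15 reads per mutant library and passed the filter through the WT libraries. A call of higher was hardly open to these genes. The median log2 fold change of the 7 genes was -3.60, and that of all genes was 0.01. In 6 of the 7 tested genes all mutant libraries lay below all WT libraries, as they did in 16.5% of all genes tested. The groups were also apart for Defa5, which was not tested. With the close pairs added up, 6 of 8 tested genes were called lower and 0 higher, against 6.78% and 2.23% of all genes. With the close pair as a random block, 5 of 7 were called lower, against 10.7% of all genes.

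**Figure D1:**
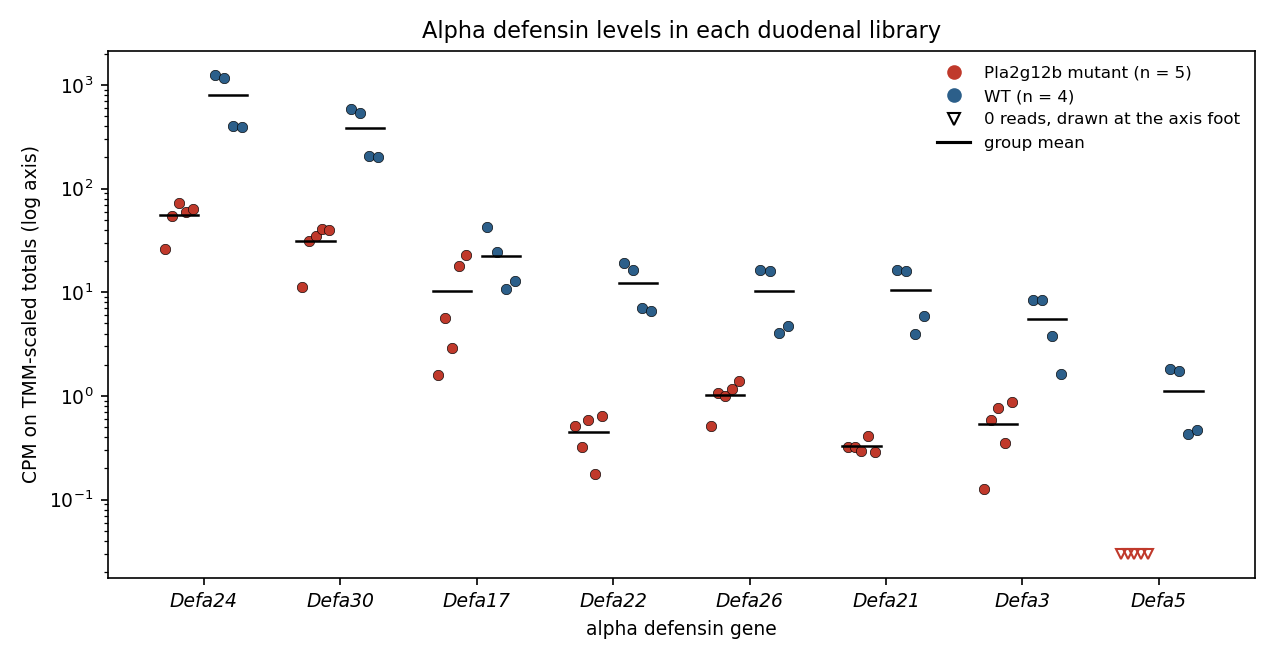
Level of the 8 alpha defensin genes in each library, in CPM on TMM-scaled totals on a log axis. Red points are Pla2g12b mutants (n = 5), blue points are WT mice (n = 4), black bars are group means, and open triangles at the foot are libraries with 0 reads. The groups are apart for every gene except Defa17.

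Defa24 and Defa30 encode nearly the same peptide and carried most of the defensin reads. Defa24 (ENSMUSG00000064213, chr8:21734494-21735471) had 26.1, 54.7, 72.9, 59.9 and 63.9 CPM in mutants 1 to 5, against 1252, 1165, 398 and 395 CPM in WT 1 to 4. Mutant 1 was the lowest and the groups did not overlap. Defa24 averaged 55.5 ± 17.7 CPM in mutants (SD, n = 5) and 802 ± 470 CPM in WT mice (SD, n = 4). The log2 fold change was -3.85 (SE 0.48, adjusted p = 0.00054 by edgeR). Without WT 1 and 2 the log2 fold change of Defa24 was -2.83 (adjusted p = 0.0010), and with the close pairs added up it was -3.97 (adjusted p = 0.040).

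Defa30 (ENSMUSG00000074444, chr8:21134642-21135598) lies near the other end of the cluster. It had 11.1, 31.0, 34.5, 40.6 and 40.2 CPM in mutants 1 to 5, against 587, 537, 205 and 201 CPM in WT 1 to 4. The order of the libraries was close to that of Defa24, again with mutant 1 lowest and no overlap. The test gave a log2 fold change of -3.60 (SE 0.49, adjusted p = 0.00094 by edgeR). The call of Defa30 did not hold with the close pairs added up, where the log2 fold change was -3.75 and the adjusted p 0.063, and without WT 1 and 2 it was -2.68 (adjusted p = 0.0049).

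Defa17 stood apart from the other tested genes. Defa17 (ENSMUSG00000060208, chr8:21655780-21656735) had 1.59, 5.65, 2.90, 17.7 and 23.0 CPM in mutants 1 to 5, against 42.2, 24.3, 10.7 and 12.7 CPM in WT 1 to 4. Mutants 4 and 5 lay above WT 3 and 4, so the groups overlapped, while mutants 1 to 3 lay below every WT library. Its log2 fold change was -1.15 (SE 0.77), with an adjusted p of 0.30 by edgeR. Without mutants 4 and 5 it was -2.71 and the gene was called lower (adjusted p = 0.031). Without WT 1 and 2 it was -0.20 (adjusted p = 0.91).

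Defa3 encodes the same precursor as Defa17. Defa3 (ENSMUSG00000074440, chr8:21287409-21288377) had 0.127, 0.591, 0.768, 0.353 and 0.866 CPM in mutants 1 to 5, against 8.39, 8.41, 3.77 and 1.64 CPM in WT 1 to 4. The groups did not overlap, and mutants 4 and 5 did not lie above WT 3 or WT 4 as they did for Defa17. The log2 fold change of Defa3 was -3.34 (SE 0.54, adjusted p = 0.00099 by edgeR). The call of Defa3 was lost with the close pair as a random block (adjusted p = 0.062), and without WT 1 and 2 the log2 fold change was -2.29. Added together, Defa3 and Defa17 had 1.72, 6.24, 3.66, 18.1 and 23.9 CPM in mutants 1 to 5, against 50.5, 32.8, 14.4 and 14.4 CPM in WT 1 to 4. The groups overlapped, with mutants 4 and 5 above WT 3 and 4. The sum averaged 10.7 ± 9.73 CPM in mutants (SD, n = 5) and 28.0 ± 17.3 CPM in WT mice (SD, n = 4). The counts do not show where along the shared sequence the reads of mutants 4 and 5 lie.

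Defa21 and Defa22 are the pair least like Defa24 and had the largest fold changes among the tested genes of the 8. Defa21 (ENSMUSG00000074447, chr8:21025545-21026516) had 0.318, 0.323, 0.295, 0.412 and 0.289 CPM in mutants 1 to 5, against 16.3, 15.9, 3.95 and 5.85 CPM in WT 1 to 4. The mutant values rest on 5 to 7 reads per library and lay close together, far under the lowest WT library. Its log2 fold change was -4.98 (SE 0.49, adjusted p = 4.3e-05 by edgeR).

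Defa22 (ENSMUSG00000074443, chr8:21162277-21163249) had 0.509, 0.323, 0.591, 0.177 and 0.635 CPM in mutants 1 to 5, against 18.9, 16.3, 7.04 and 6.55 CPM in WT 1 to 4. No mutant library came near the WT libraries, and the 5 mutants held 38 reads together against 973 in the 4 WT mice. Defa22 had a log2 fold change of -4.76 (SE 0.43, adjusted p = 2.4e-05 by edgeR). Defa21 and Defa22 share reads most with each other, so their sum is less open to that sharing: it averaged 0.774 ± 0.149 CPM in mutants (SD, n = 5) and 22.7 ± 12.8 CPM in WT mice (SD, n = 4). Without WT 1 and 2 the log2 fold change was -3.88 for Defa21 and -3.91 for Defa22, both still called lower.

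Defa26 encodes a further cryptdin, with most of its transcript unique at 100 bases. Defa26 (ENSMUSG00000060070, chr8:21618183-21618972) had 0.509, 1.08, 1.00, 1.18 and 1.39 CPM in mutants 1 to 5, against 16.5, 16.0, 4.01 and 4.68 CPM in WT 1 to 4. Mutant 1 was the lowest, as for Defa24, and the groups did not overlap. Defa26 had a log2 fold change of -3.31 (SE 0.49, adjusted p = 0.00061 by edgeR). Without WT 1 and 2 the log2 fold change of Defa26 was -2.06 (adjusted p = 0.0025).

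Defa5 was the only one of the 8 with no read assigned in any mutant. Defa5 (ENSMUSG00000074439, chr8:21297439-21298375) had 0 reads in all 5 mutants, against 1.83, 1.74, 0.432 and 0.468 CPM, 90 reads in all, in the 4 WT mice. It did not pass the expression filter over all libraries and has no test there. Set against a floor of 3 reads over the mutant group, 0.0351 CPM, its mean WT level was at least 31.9-fold that of mutants, and at least 12.8-fold with WT 1 and 2 left out. It was tested, and called lower, in 4 of the alternative fits, among them the close pairs added up (adjusted p = 0.027). Most of its transcript is shared with Defa34, so reads could have been divided between them.

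Per length of transcript, Defa24 led in both genotypes, with 132 ± 42.3 CPM per kb in mutants (SD, n = 5) and 1915 ± 1122 in WT mice (SD, n = 4). Defa30 came next with 79.1 ± 30.3 CPM per kb in mutants and 961 ± 523 in WT mice, followed by Defa17 with 25.6 ± 24.2 in mutants and 56.6 ± 36.3 in WT mice. Each of these was above the next gene in all 5 mutant and all 4 WT libraries. In mutants the order then ran Defa26, Defa3, Defa22 and Defa21, from 2.77 down to 0.783 CPM per kb. Defa3 was above Defa22 in 4 of 5 mutants and Defa22 above Defa21 in 3 of 5, so these neighbours were not separated. In WT mice it ran Defa22, Defa26, Defa21 and Defa3, with means of 29.2, 27.7, 25.1 and 13.5 CPM per kb. Defa22 was above Defa26, and Defa26 above Defa21, in 3 of 4 WT libraries, and these means differed by less than their SDs. Defa5 was lowest, with 0 in mutants and 2.97 ± 2.05 CPM per kb in WT mice.

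The makeup of the defensin reads varied less between the WT libraries than between the mutants. Defa24 made up 49.0 to 64.8% of the reads of the 8 genes in mutants, and 62.9 to 65.3% in WT mice. Defa30 made up 27.6 to 33.7% in mutants and 30.1 to 32.4% in WT mice. Defa17 made up 3.95% (95% Wilson interval 2.69 to 5.77%), 6.03% (5.01 to 7.25%), 2.56% (1.94 to 3.37%), 14.7% (13.3 to 16.3%) and 17.7% (16.2 to 19.3%) in mutants 1 to 5. In WT 1 to 4 its share was 2.17% (2.04 to 2.30%), 1.36% (1.24 to 1.5%), 1.69% (1.46 to 1.96%) and 2.03% (1.78 to 2.32%). Every mutant value lay above every WT value, though the interval of mutant 3 reached into the WT range, and mutants 4 and 5 stood far above the rest. No test was made of this share, which was looked at after the values were seen. The intervals cover counting error only, since the reads carry no molecular identifiers.

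**Figure D2:**
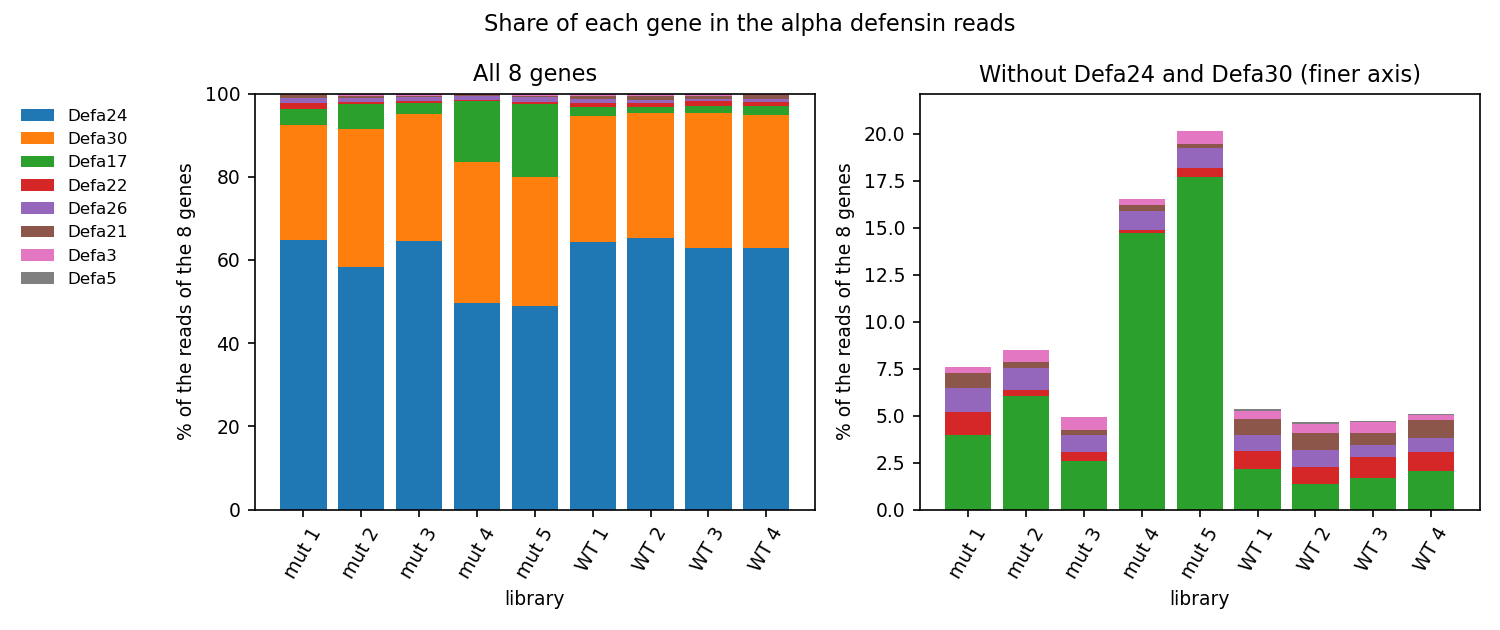
Share of each gene in the reads of the 8 alpha defensin genes, in percent, for mutants 1 to 5 and then WT 1 to 4, with all 8 genes on the left and the 6 smaller genes on a finer axis on the right. Defa17 reaches 14.7 and 17.7% in mutants 4 and 5 and stays at 1.36 to 2.17% in WT libraries.

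Across the 9 libraries, log2 CPM of the tested genes other than Defa17 moved together, with Pearson correlations from 0.91 (Defa21 with Defa3) to 0.99 (Defa24 with Defa30). Those of Defa17 with the other genes ran from 0.55 (Defa22) to 0.75 (Defa30). With the genotype means subtracted, the pairs without Defa17 ran from 0.41 (Defa30 with Defa22) to 0.96 (Defa24 with Defa30) and those with Defa17 from 0.13 (Defa22) to 0.79 (Defa30), so that the ranges overlapped. These points share the genotype split, the close pairs and, for the near-identical genes, reads.

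Most other tested rows of the cluster fell as well. Beside the 8 genes the table holds 37 alpha defensin rows, 17 of them pseudogenes, and 26 had at least 1 read. Of the 11 that were tested, edgeR called 10 lower and 0 higher, with a median log2 fold change of -4.42. Of all genes tested, 17.1% were called lower and 15.4% higher. With the close pairs added up, edgeR called 9 of 13 lower and 0 higher, against 6.78% and 2.23% of all genes. The tested rows other than AY761184, Gm14851 and Defa23 had 0 to 15 reads per mutant library. All of these but Defa31, which mutant 3 helped over the filter, passed it through the WT libraries. A call of higher was hardly open to those rows. The row with the most reads was AY761184, listed in RefSeq as Defa39, with 2.29, 9.30, 12.6, 15.0 and 14.1 CPM in mutants 1 to 5, against 467, 444, 135 and 137 CPM in WT 1 to 4. No mutant library came near the WT range, and its log2 fold change was -4.79 (SE 0.63, adjusted p = 0.00075), with an adjusted p of 0.059 when the close pairs were added up. Gm14851, listed as Defa38, averaged 14.2 ± 8.41 CPM in mutants (SD, n = 5) and 220 ± 115 CPM in WT mice (SD, n = 4), a log2 fold change of -3.95 that also lost its call with the pairs added up (adjusted p = 0.053). Both rows are on the minus strand, unlike the 8 genes, and the libraries do not mark strand.

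Among the other tested rows the log2 fold change was -5.68 for Gm7849, -5.62 for Defa37, -5.39 for Defa29, -4.43 for Defa20, -4.42 for Defa34, -4.23 for Defa36, -3.88 for Defa23 and -2.49 for Gm15292, all called lower. Gm7849 lost its call with the close pair as a random block (adjusted p = 0.092). Gm15292 lost its call with that block (adjusted p = 0.079) and without WT 1 and 2 (log2 fold change -1.22, adjusted p = 0.070). Defa31 had a log2 fold change of -2.11 and was not called (adjusted p = 0.054). Without mutants 2 and 3, Defa31 was called lower at -4.01 (adjusted p = 0.0044). Many of these rows also share most of their sequence, such as Defa37 with Defa36. Of the rows without a test, the pseudogene Defa-ps7 had 0 mutant and 75 WT reads, at least 26.7-fold lower in mutants by the mean WT level, or at least 9.54-fold with WT 1 and 2 left out. Defa2 had 0 mutant reads and 20, 5, 0 and 1 reads in WT 1 to 4, so that it rests mostly on WT 1 and no fold is given. The 8 genes made up 71.9 to 80.3% of all alpha defensin reads in mutants and 66.9 to 67.8% in WT mice.

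**Figure D3:**
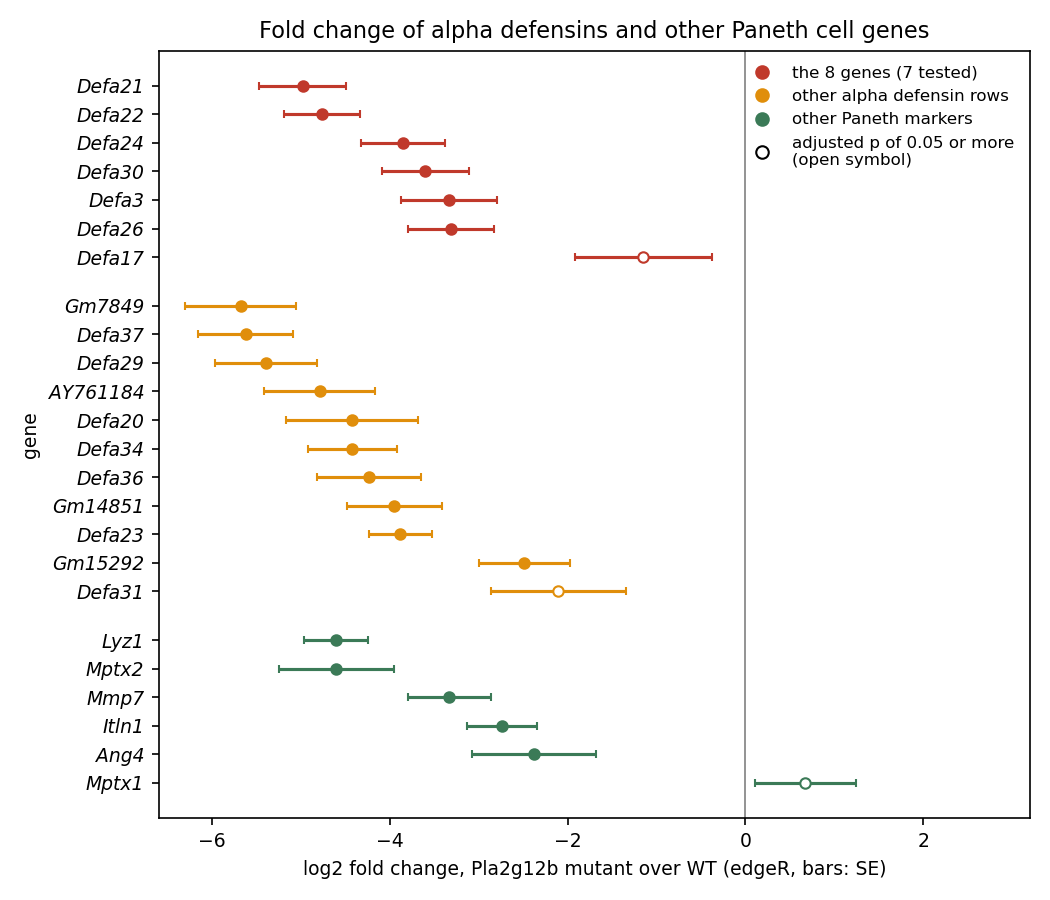
Log2 fold change, Pla2g12b mutant over WT, with its standard error, for the 7 tested genes of the 8 (red), the 11 other tested alpha defensin rows (orange) and 6 other Paneth cell markers (green). Open symbols have an adjusted p of 0.05 or more: Defa17, Defa31 and Mptx1.

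Non-defensin products of Paneth cells were set beside the defensins to see whether the granule's other contents differed too. Of 6 Paneth cell markers other than defensins, edgeR called 5 lower and 0 higher, against 17.1% and 15.4% of all genes tested. With the close pairs added up it called 4 lower and 0 higher, against 6.78% and 2.23% of all genes. Lyz1, the Paneth cell lysozyme, had 22.0, 34.5, 35.8, 53.7 and 50.2 CPM in mutants 1 to 5, against 1307, 1273, 616 and 626 CPM in WT 1 to 4. The groups were far apart and the close pairs ordered the WT libraries as for the defensins, with a log2 fold change of -4.61 (SE 0.36, adjusted p = 3.2e-05). Mmp7, which activates mouse alpha defensins, had 2.23, 4.14, 4.84, 2.65 and 4.27 CPM in mutants 1 to 5, against 56.2, 55.9, 17.4 and 16.9 CPM in WT 1 to 4. It too showed no overlap, with a log2 fold change of -3.33 (SE 0.46, adjusted p = 0.00083). Mptx2, a mucosal pentraxin of Paneth cells, had a log2 fold change of -4.60 (SE 0.64, adjusted p = 0.00098), and lost its call with the close pair as a random block (adjusted p = 0.079). Itln1, an intelectin that binds microbial sugars, had a log2 fold change of -2.74 (SE 0.39, adjusted p = 0.0011).

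Ang4, an antimicrobial angiogenin, had 13.8, 53.5, 56.9, 13.8 and 13.6 CPM in mutants 1 to 5, against 259, 246, 61.4 and 63.8 CPM in WT 1 to 4. Mutants 2 and 3 lay just under WT 3 and 4, unlike for the defensins. Its log2 fold change was -2.37 (SE 0.70, adjusted p = 0.032), and the call was lost with the close pairs added up (adjusted p = 0.22) and without WT 1 and 2, where the log2 fold change was -1.04 (adjusted p = 0.32). Its call was also lost when WT 1, WT 2, mutant 1, mutant 4 or mutant 5 was left out, with adjusted p-values of 0.054 to 0.088, and without the pair of mutants 4 and 5 (adjusted p = 0.15). Mptx1, a related pentraxin, averaged 2.56 ± 1.61 CPM in mutants (SD, n = 5) and 1.58 ± 0.935 CPM in WT mice (SD, n = 4), and was not called (adjusted p = 0.40).

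Position along the gut was read from 4 markers of gut regions. Fabp6, an ileal bile acid binding protein, had 0 to 0.127 CPM in mutants and 0 reads in all 4 WT libraries. Gata4, a transcription factor of the proximal gut, had 138 to 172 CPM in mutants and 166 to 174 CPM in WT mice. Onecut2, likewise proximal, had 64.6 to 87.4 CPM in mutants and 66.5 to 113 CPM in WT mice. The ileal marker was thus at or near 0 in all libraries. Pdx1, a transcription factor high in the first duodenum, had 12.6, 2.58, 2.01, 29.8 and 32.4 CPM in mutants 1 to 5, against 16.7, 16.3, 47.4 and 45.1 CPM in WT 1 to 4, and was not called (adjusted p = 0.40). It was lowest in mutants 2 and 3, where Ang4 was highest among mutants, and highest among mutants in mutants 4 and 5, where Defa17 was. In WT mice it was higher in WT 3 and 4, where the defensins were lower. Markers of Brunner gland and stomach-type epithelium, given below, summed to 2.53 to 3.83 CPM in mutants and 65.3 to 169 CPM in WT mice, without overlap. The part of Pdx1 level or of the site of sampling in these results was not tested.

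Reads of the 8 defensins per read of Lyz1 were 1.83 to 3.15 in mutants and 1.00 to 1.49 in WT mice, so the groups did not overlap. Per read of Mmp7 they were 18.1 to 45.4 in mutants and 31.9 to 37.1 in WT mice, which overlapped. Per read of Itln1 they were 0.699 to 2.45 in mutants and 2.93 to 3.34 in WT mice, again without overlap but with the mutants lower, the opposite order to that for Lyz1. Per read of Ang4 they were 2.92, 1.75, 1.98, 8.69 and 9.56 in mutants 1 to 5, against 7.24 to 10.3 in WT mice. Mutants 4 and 5 lay in the WT range and mutants 1 to 3 below it, the same split of the mutants as in the Defa17 level. These ratios are descriptions with no test.

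**Figure D4:**
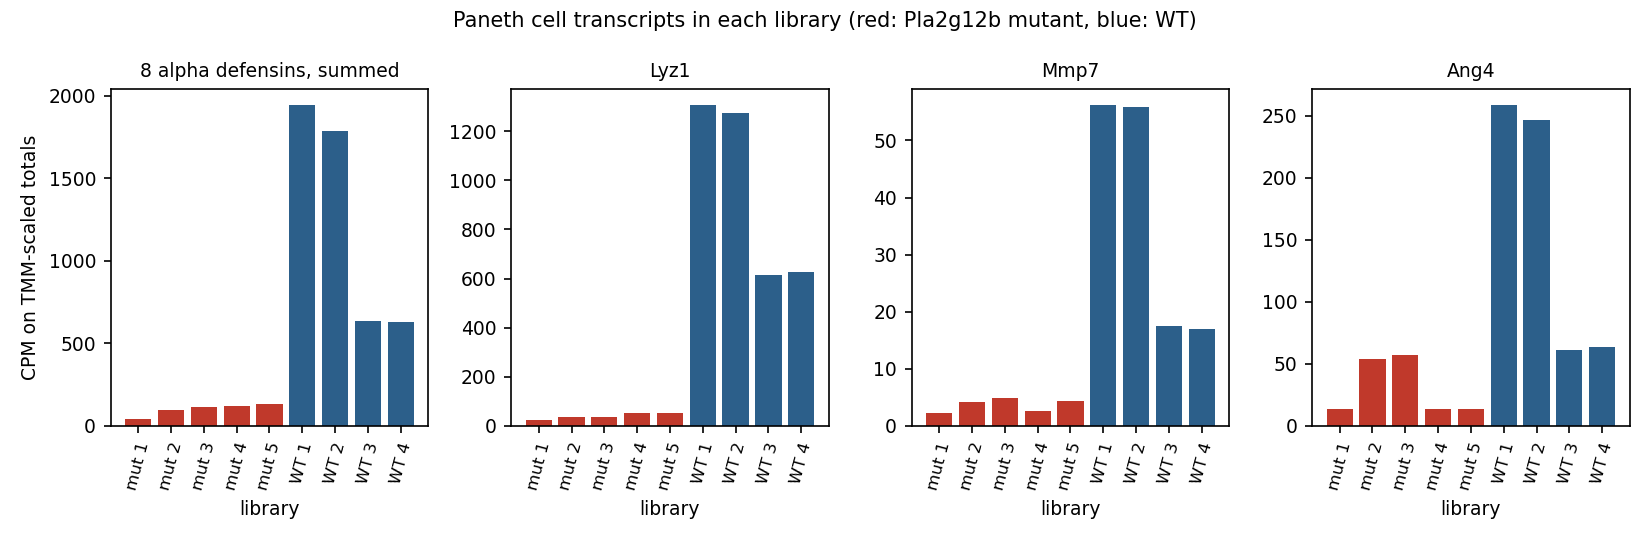
CPM on TMM-scaled totals of the 8 alpha defensins summed, of Lyz1, of Mmp7 and of Ang4, for mutants 1 to 5 (red) and then WT 1 to 4 (blue), each panel with its own axis from 0. WT 1 and 2 stand above WT 3 and 4 in all 4 panels, and mutants 2 and 3 come near WT 3 and 4 only for Ang4.

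Of the wider list of 23 genes for alpha defensin processing and Paneth cell secretion, 20 were tested, 13 were called lower and 1 higher, with a median log2 fold change of -2.03. Of all genes tested, 17.1% were called lower and 15.4% higher. The list shares 4 genes with the list of pancreatic acinar markers and 2 with that of goblet cells. Of the 16 tested genes that are not acinar markers, 9 were called lower and 1 higher, with a median of -1.11. With the close pairs added up, 11 of 21 tested genes of the list were called lower and 0 higher, and 7 of the 17 that are not acinar markers were lower and 0 higher. Of all genes, 6.78% were then called lower and 2.23% higher. The smallest p-values among the lower genes were those of the acinar markers Rnase1 (log2 fold change -6.63), Pnliprp2 (-5.02) and Clps (-8.08), followed by Lyz1. Reg3b, a lectin that kills bacteria and is also made by enterocytes, was the gene called higher, with 4490 ± 2425 CPM in mutants (SD, n = 5) and 1434 ± 475 CPM in WT mice (SD, n = 4). Its log2 fold change was 1.65 (SE 0.45, adjusted p = 0.021), which was not called with the close pairs added up (adjusted p = 0.13), without WT 3 (0.059), without WT 4 (0.058), without both (0.15) or without mutants 2 and 3 (0.077). Its relative Reg3g had a log2 fold change of 2.04 and was not called (adjusted p = 0.074), but was called without mutants 4 and 5 (2.59, adjusted p = 0.040). Guca2a, the precursor of the gut hormone guanylin, had a log2 fold change of 0.68 and was not called (adjusted p = 0.16), but was called higher without WT 1 and 2 (1.57, adjusted p = 0.00010).

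Regulators of Paneth cell fate, niche and secretion held genes called in both directions. All 32 were tested, 11 were called lower and 5 higher, with a median log2 fold change of -0.16. Of all genes tested, 17.1% were called lower and 15.4% higher, so the 5 of 32 called higher are near the share of all genes. With the close pairs added up, 6 were called lower and 1 higher, against 6.78% and 2.23% of all genes. Egf, a growth factor that Paneth cells supply to stem cells, averaged 0.556 ± 0.116 CPM in mutants (SD, n = 5) and 3.41 ± 0.679 CPM in WT mice (SD, n = 4), a log2 fold change of -2.59 (adjusted p = 2.5e-05). Spdef, a transcription factor of goblet and Paneth cell maturation, had a log2 fold change of -1.22 (adjusted p = 0.00025). Rab3d, a GTPase of secretory granules, had one of -1.20 (adjusted p = 0.00014), and Copz2, a coat protein subunit, one of -2.42 (adjusted p = 0.00030). On the higher side, Cd24a, a surface protein high on Paneth cells, had a log2 fold change of 1.21 (adjusted p = 0.00014). The chloride channel Cftr (0.40), the Wnt receptor Fzd5 (0.29) and the autophagy gene Atg5 (0.34) had small log2 fold changes that passed the test, and all 3 lost their calls with the close pairs added up, with adjusted p-values of 0.086, 0.18 and 0.15, and without WT 3 and 4, with adjusted p-values of 0.064, 0.091 and 0.13. Atg5 also lost its call without mutants 4 and 5 (adjusted p = 0.054).

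Markers of other cell types were set beside the defensins, against 17.1% of all genes called lower and 15.4% higher, or 6.78% and 2.23% with the close pairs added up. Of 15 goblet cell markers, 13 were called lower and 0 higher, with summed levels of 1115 to 2131 CPM in mutants and 8102 to 8349 CPM in WT mice. Zg16 and Klk1 are also on the acinar list, and Spdef and Agr2 on the Paneth regulator list. Zg16 alone averaged 317 CPM in mutants and 2444 CPM in WT mice. Of 12 enterocyte markers, 0 were lower and 5 higher, with 42569 to 58468 CPM in mutants and 34129 to 39137 CPM in WT mice. All 8 tested tuft cell markers were higher, with 273 to 464 CPM in mutants and 109 to 136 CPM in WT mice. Of 10 crypt stem and progenitor markers, 3 were lower and 0 higher, with overlapping sums of 307 to 533 CPM in mutants and 507 to 594 CPM in WT mice. Of 10 enteroendocrine markers, 4 were lower and 0 higher, with 197 to 271 CPM in mutants and 347 to 380 CPM in WT mice. Once the close pairs were added up, 10 of 15 goblet, 0 of 10 stem and progenitor and 2 of 10 enteroendocrine markers were called lower and 0 higher. Of the enterocyte markers 1 of 12 was then called higher and 0 lower, and of the tuft cell markers 7 of 9 higher and 0 lower. The calls of the 3 stem and progenitor markers and most of those of enterocyte markers were thus lost.

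Markers of pancreatic acinar cells, of immune cells and of Brunner gland and stomach-type epithelium were also mostly lower in mutants. Of 35 tested pancreatic acinar markers, 33 were lower and 1 higher, against 17.1% and 15.4% of all genes tested. They summed to 977 to 2203 CPM in mutants and 44895 to 93708 CPM in WT mice. The mutant sum was mostly Reg1 (190 to 1229 CPM), Spink1 (394 to 562 CPM, the gene called higher) and Zg16 (161 to 373 CPM). Reads in all mutants together, against all WT mice, were 6 against 946229 for Ctrb1, 4 against 436661 for Cela2a and 7 against 425681 for Pnlip. Prss1, Prss3, Amy2a1, Amy2a2, Ctrc and Reg2 had 0 reads in all mutants. Acinar markers with so few mutant reads passed the filter, where tested, through the WT libraries. A call of higher was hardly open to them. The WT pairs ran the other way round from the defensins, with 44895 to 45855 CPM in WT 1 and 2, where the defensins were high, and 93620 to 93708 CPM in WT 3 and 4. With acinar and immunoglobulin genes removed from the totals and the test, 6 of the 7 defensins were still called lower, against 16.9% of all genes, and the log2 fold change of Defa24 was -3.86. All 12 tested plasma and B cell markers were lower, with 1761 to 5155 CPM in mutants and 10921 to 11468 CPM in WT mice. Of 12 macrophage and dendritic cell markers, 10 were lower and 1 higher, with 48.6 to 76.2 CPM in mutants and 300.4 to 344 CPM in WT mice. Of 8 Brunner gland and stomach-type markers only 3 were tested, and all 3 were lower. The 8 summed to 2.53 to 3.83 CPM in mutants and 65.3 to 169 CPM in WT mice. A call of higher was hardly open to markers near 0 in mutants. Once the close pairs were added up, 33 of 36 acinar markers were called lower and 1 higher, against 6.78% and 2.23% of all genes. Of the plasma and B cell markers 6 of 14 were then lower, of the macrophage and dendritic cell markers 10 of 12 and of the Brunner gland and stomach-type markers 2 of 4, with 0 higher in each. Mitochondrial transcripts took 5.39 to 7.44% of reads in mutants and 3.80 to 4.06% in WT mice. The part of these differences in the defensin result was not tested.

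The genes most like the defensins were sought by the Pearson correlation of log2 CPM with the mean of the 7 tested genes, over the 9 libraries and 14016 genes that average at least 1 CPM. Among the 8 highest were the Paneth cell genes Mmp7 (0.99), Mptx2 (0.99) and Lyz1 (0.98), AW112010 (0.99, annotated as a long noncoding RNA) and the immunoglobulin variable segments Ighv9-3 (0.996), Igkv16-104 (0.99), Igkv2-109 (0.99) and Igkv12-41 (0.98). Ang4 ranked 993. With the genotype means subtracted, the 8 highest were Sars (0.99), Ighv9-3 (0.99), Igkv12-41 (0.98), Ighv5-17 (0.98), Irf8 (0.98), Eef1b2 (0.98), Igkv3-1 (0.97) and Ighv1-52 (0.97), while Lyz1 ranked 24 (0.95) and Mmp7 83 (0.90). The close pairs leave few independent points, and libraries of a pair share their level for most genes, so these are descriptions.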

How the data were processed

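The deposited values are raw counts per gene for 9 duodenal libraries, not normalized by the authors. All per-sample columns were used. Per the labels' protocols, RNA was poly-A selected and second strands were made with dTTP, so strand is not marked and reads of antisense genes cannot be told apart. Per the submitters' processing notes, reads were aligned and counted with tools that include HISAT2 2.0.5 and featureCounts 1.5.0-p3, and the builds GRCh37, hg19 and mm39 are named. The start and end of all 45 alpha defensin rows were those of GENCODE M21, so coordinates are given as GRCm38. The sources used here do not give the strand setting, the read length or how reads that match several genes were handled.

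Groups came from the genotype labels. The test was the quasi-likelihood F test of edgeR 4.0.16 under R 4.3.3 (genotype alone as a term, TMM scaling, the filter for low expression at its default, robust estimation), mutant over WT, with Benjamini-Hochberg adjustment over all genes tested and calls under 0.05. The SE was taken from the coefficient and the root of its F value. The close pairs were added up, used as a random block (limma 3.58.1) or left out in turn. DESeq2 1.42.0, voom with quality weights, other scalings and filters, a replicate block and each library left out were also run. The fit was tested on simulated data. A count of 0 was set against a floor of 3 reads over the group. Intervals and floors cover counting error only.

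The 8 genes, the gene lists and the naming rule were chosen with earlier results of these data known. The rule covered every alpha defensin row, the markers of Paneth cells and gut regions, per Paneth list up to 4 genes in each direction with the smallest p and a mean of at least 1 CPM, and the 8 genes of highest correlation. Acinar genes and genes shared by lists were named outside this rule.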

Additional observations from a re-analysis of the deposited data

Results flagged for a closer look

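Of 84 groups of values checked for a library far from the others of its genotype, 3 had one, and chance alone marks about 1 in 20 such groups. Defa21 had 0.412 CPM in mutant 4, where the nearest mutant had 0.323 CPM. The value rests on 7 reads against 5 or 6 in the other mutants. Defa31 had 0.886 CPM in mutant 3, where the nearest mutant had 0.161 CPM. Defa31 shares its whole transcript with Defa23 at a length of 100 bases, and mutant 3 held 15 of its 21 mutant reads. Egf had 0.753 CPM in mutant 2, where the nearest mutant had 0.532 CPM, and every WT library was above it.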

How the results depend on the processing

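Over 24 alternatives, 5 to 7 of the 8 alpha defensins were called lower and 0 higher. Of the other alpha defensin rows, 8 to 15 were called lower. Of all genes tested, 6.78 to 23.8% were called lower and 2.23 to 21.6% higher in these fits. How many rows were tested changed with the fit. The main fit tested 7 of the 8 genes and 11 other rows, and the fit with the close pairs added up tested 8 and 13. No called value of a named gene changed sign. The replicate block called 5 of the 7 tested genes lower (14.4% of all genes tested), losing Defa30 (adjusted p = 0.051). The replicate numbers did not pair the mice, with correlations of deviations of 0.044, 0.143, -0.152 and 0.128 for numbers 1 to 4. With the close pair as a random block, 5 of the 7 tested genes and 3 Paneth markers were called lower, against 10.7% of all genes. The product list then had 0 called higher, and the regulator list 3. With the close pairs added up, the product list had 0 called higher, and the regulator list 6 lower and 1 higher. The count of product genes called higher was 0 with no filter and with voom, and 2 with DESeq2 and with no robust estimation. It was 0 to 1 over single libraries left out, 0 without WT 3 and 4 and without mutants 2 and 3, 2 without WT 1 and 2, and 3 without mutants 4 and 5. The regulator list had 1 called higher without WT 3 and 4. The summed level had a log2 ratio of -2.66 without WT 1 and 2, an alternative chosen after seeing the data, and -3.69 on unscaled totals. Scaling moved the median of all genes by less than 0.1. Defa31 was also called lower by DESeq2 (adjusted p = 0.038) and voom (0.0033), and Reg3g higher by DESeq2 (0.019). Depth limits Defa5, Defa21 and Defa22, which had 0 to 11 reads per mutant library. The cause of each change was not tested.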
